A study of Homo sapiens with 12 samples.

Results

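The 10 genes described here are 9 apolipoproteins (APOA1, APOA2, APOA4, APOB, APOC1, APOC3, APOE, APOH and APOM) and MTTP, which loads lipid onto APOB. They were taken by gene symbol from a table of 61806 genes, and each symbol was found once. RNA was sequenced from differentiating H1 cells, an established human embryonic stem cell line of wild-type genotype, which all received the WNT activator CHIR99021 and insulin at the start of mesendoderm differentiation. In NP-IWP2 the cells stayed static in their wells (not passaged) and were directed to the cardiac fate with the WNT inhibitor IWP2 from Day 2 to Day 4. In P-DF (Pass-ctrl in the labels) they were dissociated and re-plated on Day 2 and left to differentiate spontaneously, and in P-IWP2 (Pass-IWP2) they were re-plated on Day 2 and given IWP2. Each treatment had 2 libraries on Day 12 and 2 on Day 16, 12 in all. One cell line was used, and no static culture without IWP2 is among these libraries, so P-IWP2 differs from NP-IWP2 by passaging with all that goes with it, and P-DF also by the lack of IWP2. By the study's methods, passaging meant a new cell density and, as a rule, a ROCK inhibitor at re-plating, and the effects of these cannot be told apart. Nothing in the labels says that the 2 libraries of a group came from separate cultures, so p-values measure only the spread between these libraries, which may be technical.

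Lipoproteins are particles that carry triglyceride and cholesterol in plasma around a shell of phospholipid and apolipoproteins. APOB is the structural protein of very low density lipoprotein and chylomicrons; it takes up lipid in the endoplasmic reticulum with the help of MTTP, the microsomal triglyceride transfer protein. APOA1 and APOA2 are the main proteins of high density lipoprotein, APOA4, APOC1 and APOC3 are exchangeable proteins that modulate lipid uptake and lipolysis, APOE is a ligand for lipoprotein receptors, and APOM carries sphingosine-1-phosphate. APOH, also called beta-2-glycoprotein I, binds phospholipids. The 6 genes APOA1, APOA2, APOA4, APOC3, APOH and APOM are known to be made mainly by liver or intestine (APOM also by kidney tubules), whereas APOB, MTTP, APOC1 and APOE are known also from other cells: the heart secretes APOB particles, and APOE and APOC1 are made by macrophages. Hepatocytes and cardiac cells both descend from mesendoderm.

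Promoter sequence is shown for genes whose RNA was at or near 0 in passaged libraries (APOA2, APOA4 and APOH) and for APOE, whose RNA stayed high. The sequences are from RefSeq on GRCh38.p14, 250 bases upstream of the start on the strand of the gene, 5′ to 3′. For APOE, which has several entries, the one farthest upstream is shown. The APOH entry lies inside the gene range given below, upstream of an internal start. Capitals mark a FOXA-type motif (TGTTTAC or its complement GTAAACA) in APOA2 and an HNF1-type motif (GTTAAT or its complement ATTAAC) in APOH.
APOA2, chr1:161223629-161223878, minus strand: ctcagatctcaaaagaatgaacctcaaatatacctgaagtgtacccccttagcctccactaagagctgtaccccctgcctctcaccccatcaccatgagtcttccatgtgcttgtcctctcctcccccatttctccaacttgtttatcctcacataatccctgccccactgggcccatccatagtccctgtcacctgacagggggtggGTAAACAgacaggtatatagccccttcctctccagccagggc
APOH, chr17:66229416-66229665, minus strand: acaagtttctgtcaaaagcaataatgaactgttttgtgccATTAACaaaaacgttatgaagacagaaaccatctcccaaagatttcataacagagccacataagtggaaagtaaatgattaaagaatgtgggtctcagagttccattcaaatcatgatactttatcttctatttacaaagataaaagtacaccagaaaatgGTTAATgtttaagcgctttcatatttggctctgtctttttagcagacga
APOA4, chr11:116823305-116823554, minus strand: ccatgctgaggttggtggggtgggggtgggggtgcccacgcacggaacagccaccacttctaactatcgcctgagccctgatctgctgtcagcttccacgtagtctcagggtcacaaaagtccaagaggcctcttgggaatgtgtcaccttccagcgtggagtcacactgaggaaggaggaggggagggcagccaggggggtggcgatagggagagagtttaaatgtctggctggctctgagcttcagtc
APOE, chr19:44905546-44905795, plus strand: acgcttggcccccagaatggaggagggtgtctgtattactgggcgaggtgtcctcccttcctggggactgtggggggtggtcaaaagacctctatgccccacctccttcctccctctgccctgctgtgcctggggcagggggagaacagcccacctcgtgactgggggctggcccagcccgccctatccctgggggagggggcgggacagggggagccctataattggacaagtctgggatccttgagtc
The FOXA-type motif of APOA2 lay at -42 to -36 from the start, and the HNF1-type motifs of APOH lay at -210 to -205 and at -49 to -44 from that internal start. No such match, and no match to the HNF4-type motif CAAAGTCCA, was found in the windows of APOA4 and APOE shown. The windows of MTTP, APOM and APOC1 and the other windows of APOE, which are not shown, held no match either. Both strands were searched, and no match overlapped another. Of 34943 RefSeq promoters of the same length, 2.98% held the FOXA-type motif, 6.24% the HNF1-type motif and 0.326% the HNF4-type motif. Promoters were matched for 7 of the 10 genes; APOA1, APOB and APOC3 had no entry.

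In the genome, several of these genes lie close together. APOA4 (chr11:116820700-116823304), APOC3 (chr11:116829706-116833072) and APOA1 (chr11:116835751-116837622) form a cluster on chromosome 11, with 6.4 kb between APOA4 and APOC3 and 2.7 kb between APOC3 and APOA1. APOE (chr19:44905791-44909393) and APOC1 (chr19:44914247-44919349) are 4.9 kb apart on chromosome 19. APOB lies at chr2:21001429-21044073, APOA2 at chr1:161222292-161223631, APOM at chr6:31652416-31658210, MTTP at chr4:99564081-99623997 and APOH at chr17:66212033-66256525, all on GRCh38. The exons of APOM overlap those of BAG6 on the opposite strand, and BAG6 held 3732 to 4718 counts in each library. The strand setting of the counting is not given in the sources used here, so reads of APOM and BAG6 in their overlap cannot be told apart. Other overlapping genes held at most 11 counts in any library.

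Levels are given as FPKM (counts scaled to exon length and to the total counts of the library), which allows genes to be compared per length. Library totals ran from 14885589 to 19176239 counts. Differences were tested on counts with edgeR's quasi-likelihood test, in a model of all 12 libraries, with p adjusted over all genes and a threshold of 0.05. Ratios of pooled counts carry a 95% interval for counting error only, not for the spread between libraries. Where passaged libraries held no count, the ratio was computed against 3 counts over the group and is a lower bound ("at least"). In bulk RNA, fewer cells of a type and less RNA per cell cannot be told apart.

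**Figure D1:**
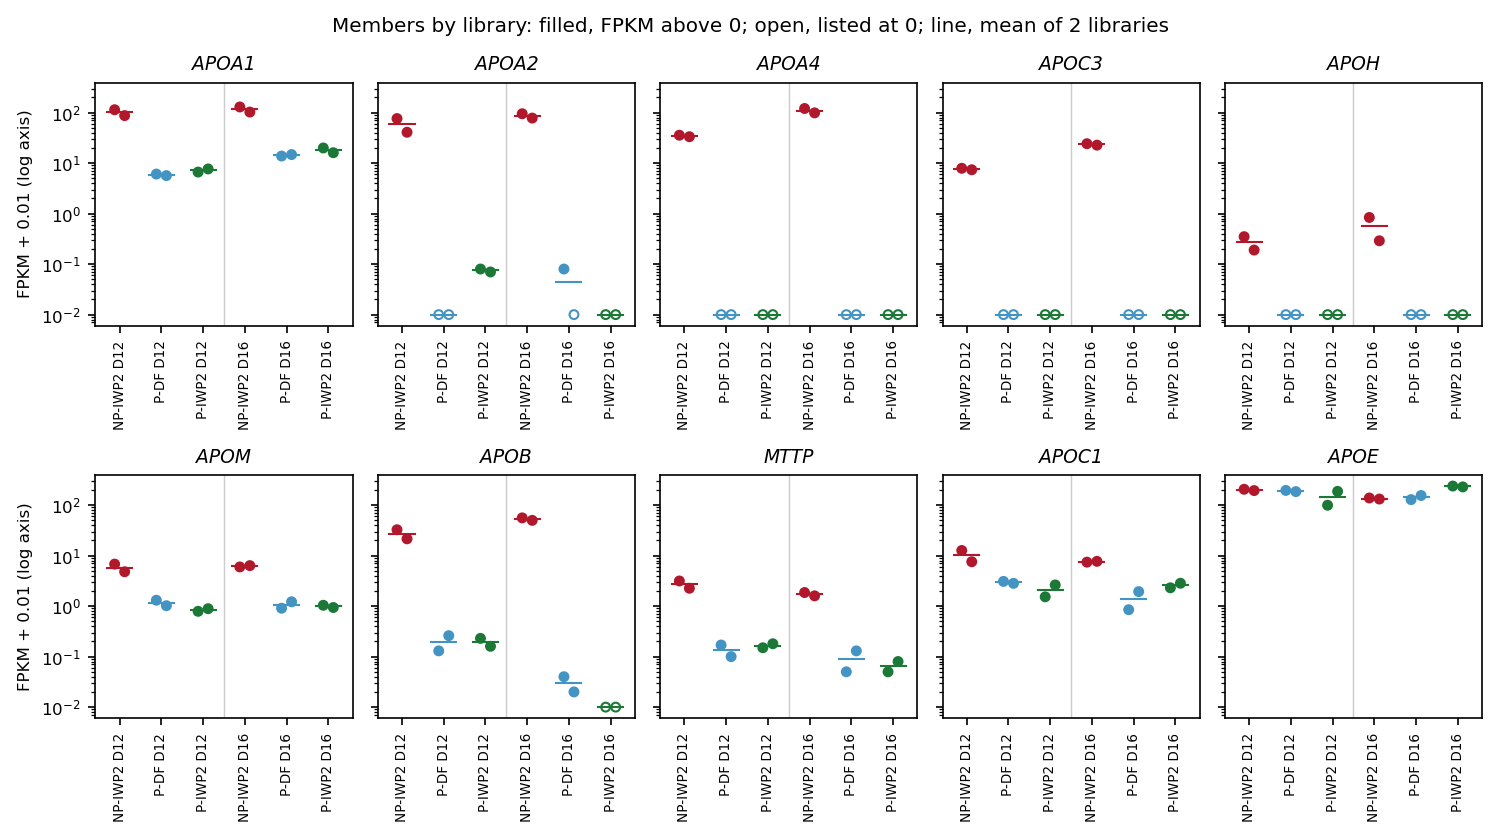
FPKM of each of the 10 genes in the 12 libraries, drawn as FPKM + 0.01 on a log axis; points are libraries, open points are listed at 0, and lines are means of 2 libraries. The genes of the upper row other than APOA1 were at or near 0 in passaged libraries, APOA1 kept 5.66 to 19.98 FPKM there, and APOE stayed between 99.72 and 239.16 FPKM in every library.

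APOB and MTTP, the pair needed to build a triglyceride-rich particle, were both far lower in passaged cells. On Day 12, APOB was at 32.6 and 21.53 FPKM in NP-IWP2, 0.12 and 0.25 in P-DF, and 0.22 and 0.15 in P-IWP2. On Day 16 it was at 56.02 and 50.04 FPKM in NP-IWP2, 0.03 and 0.01 in P-DF, and 0 in both P-IWP2 libraries as rounded, where 0 and 1 counts were left. The static and passaged ranges did not overlap on either day, and the gap was wider on Day 16. The pooled counts were 137-fold higher in NP-IWP2 than in P-DF on Day 12 (95% interval 111 to 171) and 150-fold higher than in P-IWP2 (122 to 187). On Day 16 the ratios were 2560 (1350 to 5590) and 24300 (4370 to 962000), the latter against a single read. APOB passed the test in all 4 comparisons of a passaged with the static group, with adjusted p (edgeR) between 1.52e-05 and 0.000111.

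MTTP moved in the same direction at a much lower level. It was at 3.14 and 2.25 FPKM in NP-IWP2 on Day 12 against 0.09 to 0.17 in the 4 passaged libraries. On Day 16 it was at 1.85 and 1.59 FPKM against 0.04 to 0.12. All static libraries lay above all passaged ones. MTTP was 21.3-fold (13.5 to 35.6) and 18.5-fold (10.8 to 34.2) higher in NP-IWP2 than in P-DF on Day 12 and Day 16, and 18.2-fold (12.2 to 28.4) and 24.9-fold (13.7 to 50.3) higher than in P-IWP2. By edgeR the log2 changes in passaged cells were -4.38 ± 0.49 and -4.19 ± 0.50 for P-DF and -4.15 ± 0.47 and -4.60 ± 0.52 for P-IWP2 (± SE), with adjusted p from 0.000858 to 0.00321. In P-DF, MTTP counts were 12 and 7 on Day 12 and 3 and 11 on Day 16, so its level in passaged cells rests on few reads.

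APOA1 and APOA2, the proteins of high density lipoprotein, parted from each other in passaged cells. APOA2 was at 76.45 and 40.92 FPKM in NP-IWP2 on Day 12 and 95.23 and 78.15 on Day 16. In passaged cells it held 0 counts in 5 of 8 libraries and 1 count in the other 3. APOA1 was at 114.36 and 87.5 FPKM in NP-IWP2 on Day 12, 6.07 and 5.66 in P-DF, and 6.65 and 7.67 in P-IWP2. On Day 16 it was at 129.74 and 102.8 FPKM in NP-IWP2, 13.83 and 14.79 in P-DF, and 19.98 and 16.08 in P-IWP2. Both genes were lower in every passaged library than in every static one, but APOA1 RNA was still clearly measured there, at 99 to 396 counts a library. APOA1 was 16.3-fold (14.1 to 18.9) lower in P-DF and 14.4-fold (12.6 to 16.4) lower in P-IWP2 on Day 12, and 6.99-fold (6.39 to 7.66) and 5.4-fold (5.0 to 5.85) lower on Day 16. APOA2 was at least 544-fold lower in P-DF on Day 12 and at least 848-fold lower in P-IWP2 on Day 16; where 1 or 2 reads were found, the ratio was 2410 (431 to 95000) in P-DF on Day 16 and 917 (254 to 7580) in P-IWP2 on Day 12. APOA1 passed the test in all 4 comparisons (adjusted p by edgeR from 9.02e-05 to 0.000297). APOA2 passed the filter on low counts through NP-IWP2 alone, so its counts are given as a description. The antisense gene APOA1-AS held 2 to 9 counts a library.

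APOM, the minor HDL protein that carries sphingosine-1-phosphate, changed less. It was at 4.79 to 6.79 FPKM in the 4 static libraries and 0.78 to 1.3 FPKM in the 8 passaged ones. The log2 changes by edgeR were -2.23 ± 0.30 and -2.30 ± 0.30 in P-DF and -2.81 ± 0.31 and -2.37 ± 0.30 in P-IWP2 on Day 12 and Day 16, with adjusted p from 0.00163 to 0.00639. The P-DF call on Day 12 was lost without NP-IWP2 replicate 1 (log2 change -1.95, adjusted p = 0.068) or without P-DF replicate 4 (-2.05, adjusted p = 0.0932).

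APOA4, APOC3 and APOC1 fell into 2 kinds. APOA4 and APOC3, neighbours of APOA1 on chromosome 11, had reads in static cells alone. APOA4 was at 35.75 and 33.39 FPKM in NP-IWP2 on Day 12 and 121.04 and 99.01 on Day 16, and had 0 counts in all 8 passaged libraries. APOC3, an inhibitor of lipoprotein lipase, was at 7.9 and 7.39 FPKM and then at 24.27 and 22.74, and also had 0 counts in all 8. APOA4 was thus at least 493-fold (Day 12) and 1580-fold (Day 16) lower in P-DF, and at least 554-fold and 1680-fold lower in P-IWP2. The bounds for APOC3 were 63.1-fold and 195-fold in P-DF and 70.9-fold and 206-fold in P-IWP2. Both genes passed the filter on low counts through NP-IWP2 alone, and these bounds are a description. Of these 3 neighbours, APOA1 was the one with reads in passaged cells.

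APOC1, which was lower by less, was at 12.65 and 7.57 FPKM in NP-IWP2, 3.08 and 2.82 in P-DF and 1.52 and 2.62 in P-IWP2 on Day 12. On Day 16 it was at 7.43 and 7.71 FPKM, 0.84 and 1.93, and 2.3 and 2.83. The static libraries lay above the passaged ones on both days. It passed the test in P-DF on Day 16 (log2 change -2.20 ± 0.46, adjusted p = 0.0134 by edgeR) and in P-IWP2 on Day 12 (-2.28 ± 0.45, 0.0393), and missed it in P-DF on Day 12 (-1.69 ± 0.43, 0.0635) and in P-IWP2 on Day 16 (-1.28 ± 0.43, 0.0716). These calls turned on the setting: the Day 16 call in P-DF was lost without either NP-IWP2 library of that day (adjusted p = 0.0605 without replicate 1 and 0.0632 without replicate 2) or without P-DF replicate 3 (0.102), and over the alternatives tried the Day 12 comparison of P-IWP2 ranged from 1.34e-08 to 0.513.

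APOE differed from all other members. Per length it was the most abundant of them in every library. On Day 12 it was at 206.55 and 194.77 FPKM in NP-IWP2, 195.92 and 185.67 in P-DF, and 99.72 and 187.57 in P-IWP2. On Day 16 it was at 138.74 and 132.23 FPKM, 128.83 and 155.43, and 239.16 and 230.07. The P-IWP2 libraries of Day 16 were higher than every other library, and the remaining libraries overlapped between treatments. The log2 change by edgeR was 0.02 ± 0.29 in P-DF on Day 12 (adjusted p = 0.984), 0.30 ± 0.29 on Day 16 (0.525), -0.47 ± 0.30 in P-IWP2 on Day 12 (0.638) and 1.07 ± 0.30 in P-IWP2 on Day 16 (0.0385). The Day 16 rise in P-IWP2 kept its direction in all 18 alternatives but passed the threshold in 7 of them (adjusted p from 1.4e-07 to 0.217); leaving out a library of NP-IWP2, P-DF or P-IWP2 other than the P-IWP2 pair of Day 12 ended the call in each case, with log2 changes of 0.98 to 1.17.

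APOH was near the limit of detection. It held 8 and 4 counts in NP-IWP2 on Day 12, 21 and 6 on Day 16, and 0 in every passaged library. The levels were 0.34 and 0.18 FPKM, then 0.83 and 0.28. It did not pass the filter on low counts. The bounds were thus small, at least 3.4-fold and 7.46-fold lower in P-DF and at least 3.82-fold and 7.89-fold lower in P-IWP2 on Day 12 and Day 16. Without the filter, adjusted p (edgeR) was 0.0664 and 0.0913 on Day 12 and 0.00407 and 0.00333 on Day 16, for P-DF and P-IWP2.

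**Figure D2:**
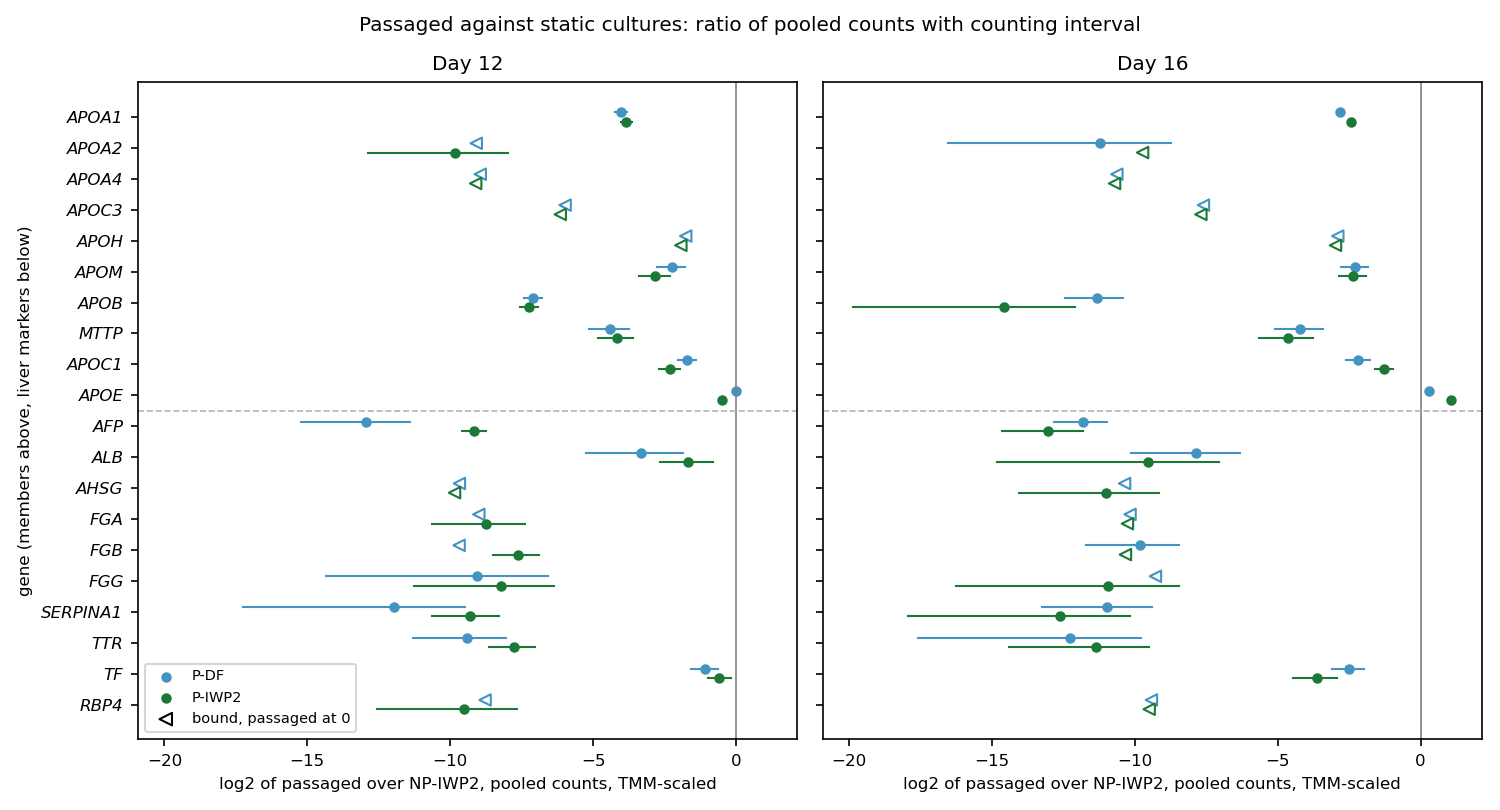
Log2 ratio of pooled counts, passaged over NP-IWP2, for the 10 genes (above the dashed line) and 10 liver markers (below it) on Day 12 and Day 16; bars are 95% counting intervals and open triangles are bounds where passaged libraries held no read. The liver markers reach from far below 0 to TF and, on Day 12, ALB. These lie within the range spanned by APOM, MTTP, APOA1 and APOC1 or nearer to 0. APOA2, APOA4 and APOB lie among the lower values, and APOE lies at 0 or above, except for P-IWP2 on Day 12.

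Counted together, 9 of the 10 genes passed the filter. APOA2, APOA4 and APOC3 passed it through their level in NP-IWP2 alone, so the counts below describe these genes and are no test of the group. On Day 12, 7 of the 9 were lower in P-DF, where 3.32% of all genes tested were lower. On Day 16, 8 were lower in P-DF (9.86% of all genes). In P-IWP2, 8 were lower on Day 12 (1.33% of all genes), and on Day 16 7 were lower (9.95%) and 1, APOE, was higher (7.15%). The median log2 change of the 9 genes was -4.38 and -4.19 in P-DF and -4.15 and -4.60 in P-IWP2, against -0.004, -0.015, 0.009 and -0.03 for all genes. For the 5 tested genes made mainly by liver or intestine the medians, with zeros set at their bounds, were -5.98 and -7.60 in P-DF and -6.15 and -7.69 in P-IWP2. Each of these medians is the bound of APOC3, which had no read in passaged cells, so it depends on depth and on the static level of APOC3. For the genes made also by other cells the medians were -3.03 and -3.20 in P-DF and -3.22 and -2.94 in P-IWP2. The medians of the 2 lists are thus no comparison of the tissue classes. In a model of both days, 8 genes were lower in P-DF (19.8% of all genes) and 8 in P-IWP2 (2.14%), APOE being the exception with log2 changes of 0.14 ± 0.10 (adjusted p = 0.3) and 0.31 ± 0.37 (0.704). These comparisons share the NP-IWP2 libraries. The background itself turned on single libraries. In P-DF on Day 12, 647 genes were lower, against 68 without P-DF replicate 4 and 2807 without P-IWP2 Day 12 replicate 6, while 6 to 8 members were called over all such fits. On Day 16 the number of 1924 became 396 without P-DF replicate 4 and 3720 without P-IWP2 Day 12 replicate 6. In P-IWP2 on Day 12, 259 became 55 without NP-IWP2 replicate 1 and 1963 without P-IWP2 replicate 5, and on Day 16 1941 became 637 without P-IWP2 replicate 6 and 3804 without P-IWP2 Day 12 replicate 6. Over both days 408 became 132 without NP-IWP2 Day 16 replicate 1 and 2897 without P-IWP2 Day 12 replicate 5. In a model of only the Day 12 libraries of P-IWP2 and NP-IWP2, none of the 8 was called, with adjusted p from 0.102 to 0.513. Scaled to library totals instead, all genes had a Day 16 median of -0.25 for P-DF and -0.31 for P-IWP2, and this moved the share of higher genes among those called from 35.3% to 16.3% and from 41.8% to 17.7%; the APOE rise was then 0.79 (adjusted p = 0.0468).

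No difference between the 2 passaged treatments passed the test over both days, and the days were not tested apart. Of 6 members that passed the filter in this comparison, none was called between P-IWP2 and P-DF over both days, and none of 17999 genes was (0%). Without adjustment 931 genes were under 0.05, and DESeq2 called 2 genes and edgeR without the filter called 1003. The log2 difference was 0.29 ± 0.14 for APOA1 (adjusted p = 0.858), 0.15 ± 0.32 for APOE (0.957), and -0.65 ± 0.61 for APOB (0.883). These p-values do not show that the treatments are alike. APOE stood in opposite order on the 2 days, which the value over both days averages. Its mean was 144 FPKM in P-IWP2 and 191 in P-DF on Day 12, where the libraries overlapped, and 235 and 142 on Day 16.

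**Figure D3:**
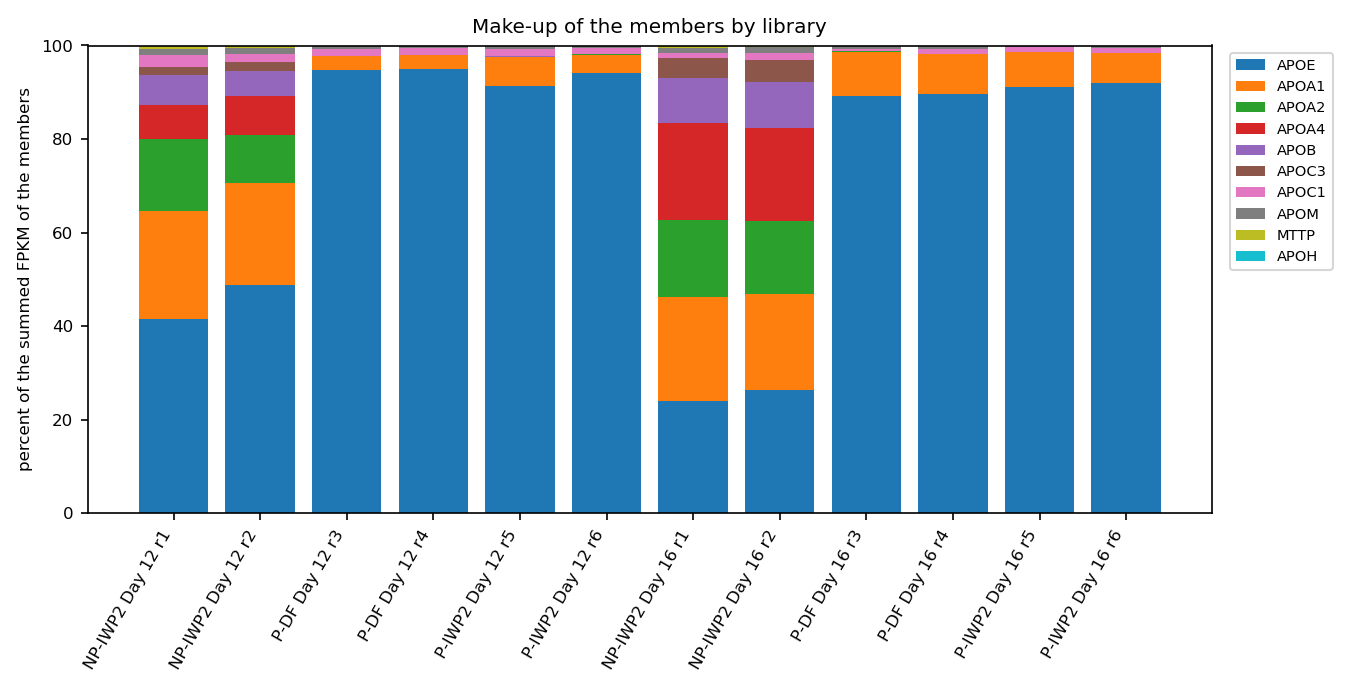
Share of each gene in the summed FPKM of the 10 genes, by library (r gives the replicate). APOE takes 23.9% to 48.7% in static libraries and 89.1% to 95.0% in passaged ones.

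The make-up of apolipoprotein RNA differed accordingly. The 10 genes took 0.0955% to 0.159% of all counts in static libraries and 0.0229% to 0.0541% in passaged ones. In NP-IWP2, APOE gave 41.6% and 48.7% of their summed FPKM on Day 12 and 23.9% and 26.4% on Day 16, as APOA4 went from 7.2% and 8.34% to 20.8% and 19.8%. APOA1 held 20.5% to 23.0% in all static libraries. In passaged libraries APOE gave 89.1% to 95.0% and APOA1 2.90% to 9.57%, so that these 2 genes made up nearly all of it. As counts rather than FPKM, which favours long transcripts, APOB gave 33.4% to 52.9% of the static total.

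The change from Day 12 to Day 16 was tested within each treatment. In NP-IWP2, APOA4 and APOC3 of the chromosome 11 cluster rose, by 1.79 ± 0.18 (log2, adjusted p = 0.0223 by edgeR) and 1.73 ± 0.26 (0.0483). Of all genes, 0.877% were higher. APOB gave 1.09 ± 0.32 (0.118), APOA2 0.68 ± 0.32 (0.292) and APOA1 0.32 ± 0.20 (0.396), none past the threshold. Each of these calls rested on all libraries of the group: without any one NP-IWP2 library, APOA4 had adjusted p of 0.0844 to 0.236 and APOC3 of 0.2 to 0.351. APOC3 was also lost without any one P-DF library (0.0598 to 0.0767).

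In passaged cells APOA1 rose and APOB fell. APOA1 rose 2.93-fold (2.48 to 3.46) in P-DF and 3.33-fold (2.89 to 3.86) in P-IWP2, with log2 changes of 1.54 ± 0.22 (adjusted p = 0.00305 by edgeR) and 1.73 ± 0.21 (0.00148). Of all genes, 6.79% and 12.9% were higher on Day 16 in these treatments. APOB went from 26 and 60 counts to 7 and 2 in P-DF and from 50 and 38 to 0 and 1 in P-IWP2. That was an 8.84-fold (4.44 to 20.0) and a 76.6-fold (13.4 to 3060) lower level, with adjusted p of 0.0117 and 0.00281, where 6.81% and 14.1% of all genes were lower. Of 10 liver markers in P-IWP2, AFP, ALB and TF were called lower on Day 16 and 7 were not called (14.1% of all genes were lower). Pooled counts of these 3 went from 47 to 5, 14 to 1 and 91 to 16, with adjusted p (edgeR) of 0.0487, 0.0369 and 0.015. Most of their Day 12 counts came from replicate 5. It held 39 of AFP, 10 of ALB and 67 of TF, against 8, 4 and 24 in replicate 6. AFP and ALB passed the filter through NP-IWP2. In P-DF none of 10 liver markers was called. Their part in the APOB change was not tested. In P-DF the APOB fall did not pass without P-DF Day 12 replicate 4 (log2 change -2.47, adjusted p = 0.0881) or Day 16 replicate 4 (-2.40, 0.111). APOE rose in P-IWP2 by 1.08 ± 0.30 (0.0281), while its change was -0.17 ± 0.29 in P-DF (0.746) and -0.45 ± 0.29 in NP-IWP2 (0.435). The APOE rise was 0.63 (adjusted p = 0.00973) without P-IWP2 Day 12 replicate 5 and 1.77 without replicate 6, and it did not pass without either NP-IWP2 library of Day 12 (0.0505 and 0.0503) or without either P-IWP2 library of Day 16 (0.0712 and 0.128).

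The difference between these time courses was tested as an interaction. For APOB it was -4.18 ± 0.68 in P-DF (adjusted p = 0.0399 by edgeR; 0.308% of all genes were called in this direction) and -7.04 ± 0.93 in P-IWP2 (0.0119; 1.06%), the latter resting on a single read on Day 16. For APOA1 it was 1.40 ± 0.29 in P-IWP2 (0.0472; 0.774% called in this direction) and 1.22 ± 0.29 in P-DF (0.119). For APOE in P-IWP2 it was 1.53 ± 0.42 (0.0899). MTTP and APOM gave no call in either interaction, and for APOA4 and APOC3 it could not be estimated, since passaged cells had no reads on either day.

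**Figure D4:**
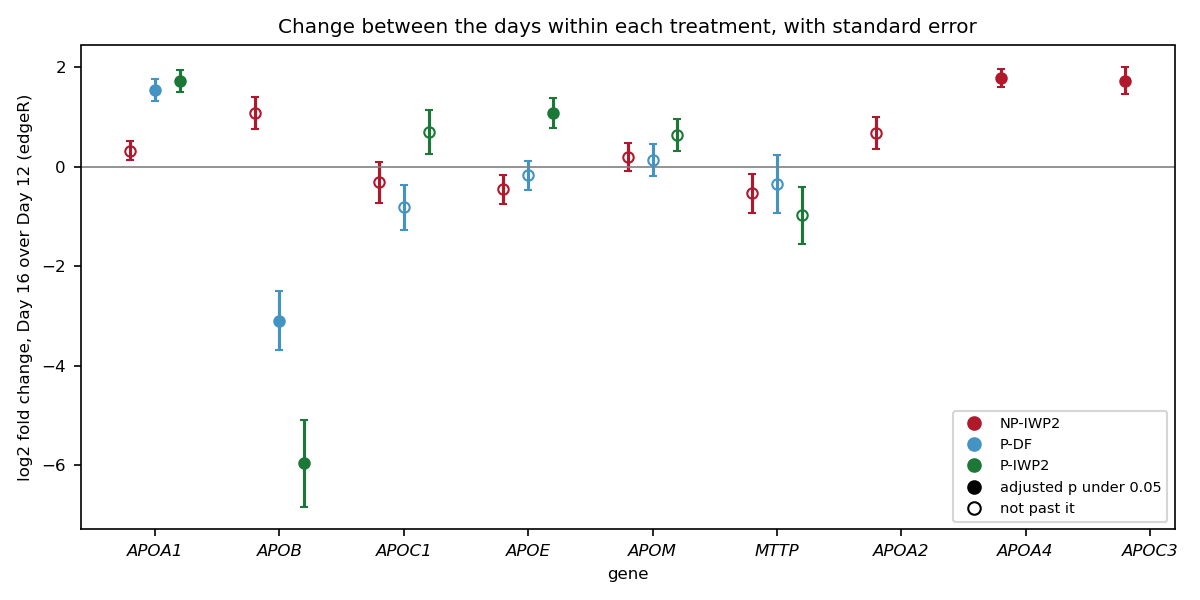
Log2 change from Day 12 to Day 16 within each treatment by edgeR, with the standard error; filled points passed the threshold. APOA4 and APOC3 are filled in NP-IWP2, APOA1 and APOB in both passaged treatments, in opposite directions, and APOE in P-IWP2. Drawn for NP-IWP2 only are APOA4 and APOC3, without reads in passaged cells, and APOA2, with at most 2 pooled counts in any passaged group.

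Liver markers moved with most of these genes. The summed FPKM of 10 liver markers (AFP, ALB, AHSG, FGA, FGB, FGG, SERPINA1, TTR, TF and RBP4) was 363.25 to 503.11 in static libraries on Day 12 and 671.77 to 797.76 on Day 16, against 0.13 to 0.29 in P-DF and 0.6 to 1.68 in P-IWP2 on Day 12, and 0.14 to 0.33 and 0.11 to 0.14 on Day 16. AFP, a major serum protein of fetal liver and yolk sac, led them with 210.68 to 465.41 FPKM, whereas ALB was at 0.33 and 0.48 FPKM on Day 12 and 8.48 and 5.22 on Day 16. Of the 10, 9 were lower in P-DF on Day 12, 8 in P-IWP2 on Day 12 and all 10 in both on Day 16; most of them, like APOA2, passed the filter through NP-IWP2 alone. Their part in the change of each apolipoprotein was not tested. Relative to the liver sum, APOA1 was at 22.7% and 24.1% in NP-IWP2 on Day 12 and at 16.3% and 15.3% on Day 16, but in passaged libraries APOA1, at 5.66 to 19.98 FPKM, exceeded the whole liver sum. Relative to the sum of 9 cardiomyocyte markers, APOE was at 3.89% to 4.71% in all 6 libraries of Day 12, at 4.03% and 4.77% in NP-IWP2 on Day 16, and at 1.63% to 2.58% in passaged libraries of Day 16. Over the same days the cardiomyocyte sum went from 4445.31 and 5045.71 to 2769.98 and 3439.51 FPKM in NP-IWP2, and stood at 7553.76 to 9372.63 FPKM in passaged libraries of Day 16.

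Macrophage markers, which bear on APOE and APOC1, were near 0: the sum of 7 was 0.03 to 0.56 FPKM, and C1QA was listed at 0 in every library. Of 6 intestine markers, SI and ALPI were at or under 0.15 FPKM throughout and CDX2 at or under 0.41, while FABP2 was at 0.4 to 13.75 and set most of their sum of 0.65 to 14.04. VIL1 was at 0.52 to 0.92 FPKM in static and 0.06 to 0.29 in passaged libraries, and was called lower in P-DF on Day 16. FABP2 went the other way in P-DF on Day 12, at 8.25 and 11.14 FPKM against 2.25 and 2.37 in NP-IWP2. Over both days FABP2 was called higher in P-DF, and VIL1 and CDX2 were called lower. CDX2 had 0 counts in P-DF and passed the filter through NP-IWP2 alone, so its call is a description. Of 5 kidney tubule markers (their sum was 0.8 to 7.66 FPKM), PAX2, PAX8 and SLC34A1 were at or under 0.03. The other 2 were measured and moved in the direction of APOM: LRP2 was at 4.56 to 6.76 FPKM in static and 0.51 to 3.86 in passaged libraries, CUBN at 0.89 to 1.21 and 0.28 to 0.85, and both were called lower in both passaged treatments on Day 16. Their part in the APOM change was not tested. Fibroblast and epicardial sums also moved with the static groups, at 296.01 to 535.08 and 28.51 to 75.21 FPKM in NP-IWP2. In passaged libraries other than P-IWP2 Day 12 replicate 5 they were 14.71 to 28.42 and 0.09 to 0.28. Of 4 endothelial markers, KDR set most of the sum, at 156.41 to 232.51 FPKM on Day 12 outside that replicate and 9.89 to 39.31 on Day 16. The other 3 moved with the static groups. On Day 12, TEK was at 10.87 and 11.48 FPKM in NP-IWP2 and at 0.01 and 0.1 in P-DF, CDH5 at 4.73 and 6.05 against 0.02 and 0.07, and PECAM1 at 1.84 and 2.5 against 0.01 in both. TEK and CDH5 were called lower in P-DF on Day 12, and all 3 over both days. With at most 9 pooled counts in either P-DF group, these 3 genes passed the filter through NP-IWP2 alone, so their calls are a description.

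The library labelled P-IWP2 Day 12 replicate 5 stood apart from its partner. It held 133.99 FPKM of epicardial markers against 0.28, 214.71 of fibroblast markers against 20.16 and 2115.8 of cardiomyocyte markers against 4415.26. Of the endothelial markers, KDR was lower in it (11.16 against 232.51 FPKM), whereas CDH5 (2.6 against 0.03), TEK (1.45 against 0.04) and PECAM1 (1.18 against 0) were higher. Its APOE was at 99.72 FPKM against 187.57, and its APOC1 at 1.52 against 2.62, while APOA1 (6.65 and 7.67), APOM (0.78 and 0.88), MTTP (0.14 and 0.17) and APOB (0.22 and 0.15) were alike. Without it, the APOE change in P-IWP2 on Day 12 was -0.01 (adjusted p = 0.98), and without its partner -1.16 (0.000246). Without it, the numbers of members lower were 8 and 9 in P-DF and 8 and 9 in P-IWP2 on Day 12 and Day 16, and 9 in P-IWP2 over both days. Without it, the genes called lower over the whole table also rose, to 2793 and 3705 in P-DF, 1963 and 3801 in P-IWP2, and 2897 in P-IWP2 over both days.

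Of 61 other genes of lipoprotein biology, 45 passed the filter. On Day 12, 14 were lower in P-DF and 6 in P-IWP2, against 3.32% and 1.33% of all genes. On Day 16, 19 were lower in P-DF (9.86% of all genes), and 15 were lower (9.95%) and 1 higher (7.15%) in P-IWP2. The same shares over all genes stand beside the counts of the smaller lists that follow. Their median log2 change was -0.61, -0.46, -0.96 and -0.66 in these 4 comparisons. The transcription factors that regulate hepatic apolipoprotein genes made up much of this: of 13, 8 and 9 were lower in P-DF and 3 and 8 in P-IWP2 on Day 12 and Day 16. HNF4A, the nuclear receptor that drives many apolipoprotein promoters, was at 1.21 and 0.63 FPKM in NP-IWP2 on Day 12 and 0.71 and 0.73 on Day 16, and at 0 to 0.03 in passaged libraries. CREB3L3, a factor of hepatic triglyceride metabolism, was at 1.11 to 1.57 FPKM in static libraries against 0 to 0.07. CEBPA was at 2.07 to 3.47 FPKM against 0.1 to 0.69. HNF4A, CREB3L3 and FOXA2, with at most 5 pooled counts in any passaged group, passed the filter through NP-IWP2 alone, so that their place among the genes called lower is a description.

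Few genes of the general machinery of assembly and secretion were called on a single day beside APOB and MTTP. Of 11 genes in this list 9 were tested, and on Day 12 none was called in either treatment, with medians of -0.08 in P-DF and -0.25 in P-IWP2; by edgeR, 2 were lower in P-DF (DGAT2 and SURF4) and 1 in P-IWP2 (DGAT2) on Day 16. Over both days in P-DF, SURF4 and P4HB were lower and SORT1 and SAR1B higher. Of all 18871 genes tested in that comparison, 3742 were lower and 2698 higher. P4HB, the partner subunit of MTTP, was at 21.29 to 34.08 FPKM in all 12 libraries, and SURF4, a cargo receptor for secretion, at 36.7 to 71.95 FPKM. SORT1, which binds APOB in the Golgi, was at 15.05 to 16.88 FPKM in static and 16.65 to 26.67 in passaged libraries, and rose in P-IWP2 on Day 16 (0.84 ± 0.20, adjusted p = 0.021). APOBEC1, the enzyme that edits APOB RNA, was listed at 0 in every library. Lipases and their regulators included 3 of 8 tested lower in P-DF and 2 in P-IWP2 on Day 12, then 5 and 3 on Day 16. LIPC, hepatic lipase, was at 0.35 to 0.93 FPKM in static libraries and 0 in passaged ones. PLTP, the phospholipid transfer protein, was at 30.57 to 37.36 FPKM in static libraries, 3.81 to 7.81 in 7 passaged ones and 29.02 in P-IWP2 Day 12 replicate 5.

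**Figure D5:**
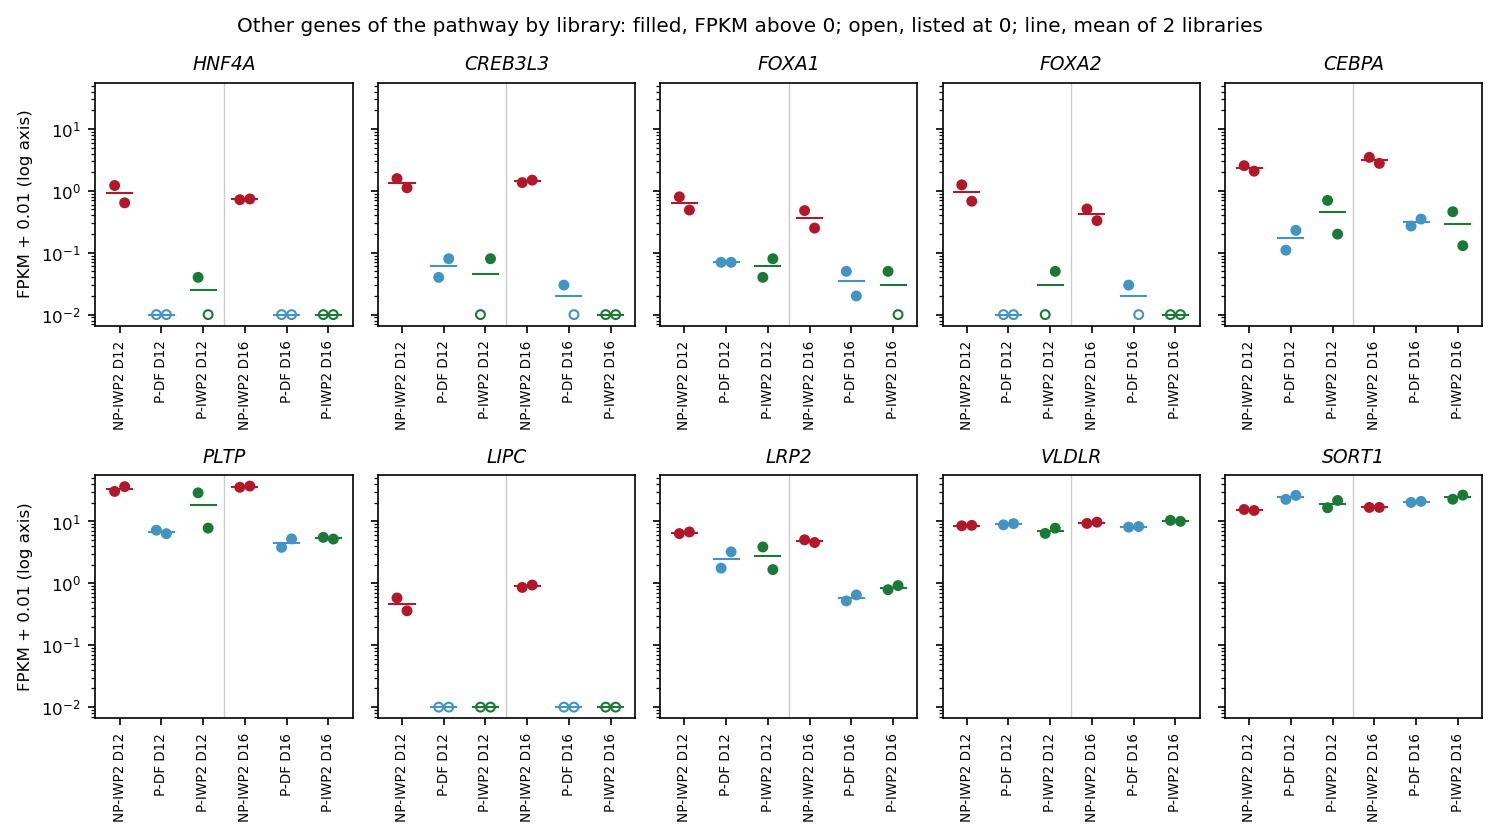
FPKM + 0.01 on a log axis of 10 other genes of lipoprotein biology in the 12 libraries; points are libraries, open points are listed at 0, and lines are means. HNF4A, CREB3L3, FOXA1, FOXA2 and LIPC were at or near 0 in passaged libraries, whereas VLDLR (6.41 to 10.42 FPKM) and SORT1 (15.05 to 26.67 FPKM) were measured in all.

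The genes whose pattern over the 12 libraries was most like that of each member were found by the root mean square difference of mean-centred log2 CPM. For APOA2 they were RBP4 (0.212), FGA (0.379) and SERPINA1 (0.522), and for APOA4 they were AHSG (0.365), FGA (0.428) and RBP4 (0.535), all of them liver markers. For APOB they were FGA, FGB and TTR, at 1.37 to 1.38. GSTA1 (0.238) was the most like APOC3, TKTL1 (0.604) the most like APOA1, FIBIN (0.392) the most like APOC1, PPP2R2B (0.26) the most like APOM, and S100A14 (0.482) the most like MTTP. For APOE they were LYNX1 (0.194), LGMN (0.196) and GRAMD2B (0.2), to be read against a spread of APOE around its own mean of 0.456. The 12 libraries share their treatments and depth, and these values are a description.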

How the data were processed

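RNA-seq of H1 cells gave 12 libraries (3 treatments, 2 days, 2 libraries a group), grouped by their titles. The submitters' processing notes name cutadapt 1.9.1, HISAT2 2.0.1, HTSeq 0.6.1, DESeq2 and hg38. The authors deposited raw read counts per gene and FPKM, which equal the count divided by exon length and library total, up to rounding. The labels name a long-read library kit beside these short-read tools. Totals were 14885589 to 19176239 counts, so 3 counts are 0.156 to 0.202 CPM.

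Counts were analysed in R 4.3.3 with edgeR 4.0.16: TMM, filterByExpr (19505 genes left), the quasi-likelihood test and Benjamini-Hochberg adjustment over all genes, in a model of 6 groups. Comparisons over both days used the 8 libraries of the 2 treatments, with day as a term. Alternatives were DESeq2 1.42.0, limma 3.58.1 on log2(FPKM + 1), other scalings, no filter, models of 2 groups, leaving out each library, and a replicate block. The code was tested on simulated data. Replicate numbers recur on both days, but deviations of same-numbered libraries correlated at only 0.0754, -0.00154 and -0.031, so no pairing was assumed. The members, the lists and the split by tissue were chosen with earlier results of these data known. Text names all members and pathway genes needed to describe a role. Values of some pathway genes are not reported here.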

Additional observations from a re-analysis of the deposited data

Results flagged for a closer look

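The change from Day 12 to Day 16 differed between passaged and static cells for 2 of the genes, by a test of the interaction itself in edgeR. APOB was lower on Day 16 than on Day 12 in P-DF and P-IWP2 and higher in NP-IWP2, although the NP-IWP2 change alone did not pass the threshold, and the difference of the log2 changes was -4.18 (adjusted p = 0.0399) for P-DF and -7.04 (adjusted p = 0.0119) for P-IWP2. The latter rests on 1 read in the P-IWP2 libraries of Day 16. APOA1 rose more in P-IWP2 than in NP-IWP2, by 1.40 (adjusted p = 0.0472), with 253 and 734 pooled counts in P-IWP2 and 3808 and 4524 in NP-IWP2 on the 2 days. Over the alternatives, the APOB difference in P-DF passed in 6 of 18 (adjusted p from 8.68e-25 to 0.246), that in P-IWP2 in 15 of 18 (1.52e-36 to 0.0649) and the APOA1 difference in 7 of 18 (8.47e-06 to 0.214); none of the 3 changed direction. With 2 libraries a group, no library could be tested as lying apart from the rest of its group.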

How the results depend on the processing

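Of 204 recomputed counts of members called, 158 were within 1.5 times of the value reported and 46 were not, and of 1238 recomputed changes of single genes 1109 kept their direction and their side of the threshold, 90 lost the call, 32 gained it and 7 changed sign. The sign changes concerned APOE near 0. In P-DF on Day 12 its change was -0.073 with total counts and -0.072 with limma, and -0.06 to 0.066 when a library was left out. In P-DF over both days it was -0.002 with total counts and -0.005 with limma, and between P-IWP2 and P-DF it was -0.057 to 0.466 when a library was left out.

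For P-IWP2 on Day 12, a model of only the 2 groups called 0 members in place of 8. For the change with day in NP-IWP2 (2 members), total counts gave 1, no filter 4, the 2 groups alone 4 and the replicate block 1. In P-DF (2 members) limma gave 1, and in P-IWP2 (3 members) the 2 groups alone gave 0. For the interaction in P-DF (1 member), DESeq2, limma and no filter each gave 2 and the replicate block 0. Leaving out one library, which left 1 in its group, moved the number of members called for the change with day in NP-IWP2 and P-DF and for both interactions. The number of genes called over the whole table moved as well in each of these comparisons. The cause was not tested. For the interaction in P-IWP2, the most members were called without P-IWP2 Day 12 replicate 6, where the most genes over the whole table were called too. The replicate block, used although the numbers do not pair the libraries, also lost APOC3 in NP-IWP2 (adjusted p = 0.0846) and the APOB interaction in P-DF (0.112) and changed no other call among these. No paired analysis was possible because replicate numbers do not recur across treatments for comparisons within a day or over both days.

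Counts over all genes moved too. In P-DF on Day 12, 783 became 1603 with DESeq2, 3107 without the filter and 5356 with 2 groups. In P-DF on Day 16, 2975 became 4671 without the filter and 6924 with 2 groups. In P-IWP2 on Day 12, 323 became 636, 1527, 550 with limma and 0 with 2 groups, and on Day 16 3336 became 5126 with 2 groups. For the change with day, NP-IWP2 went from 386 to 1093 (DESeq2), 2045 (no filter), 879 (limma), 5124 (2 groups) and 154 (block), P-DF from 2654 to 6275 and P-IWP2 from 5270 to 0 with 2 groups. Over both days P-IWP2 went from 489 to 1497 (DESeq2) and 1521 (no filter). The interaction went from 94 to 502, 1124, 203 and 12 in P-DF (DESeq2, no filter, limma, block) and from 358 to 1425, 2732, 567 and, with total counts, 550 in P-IWP2. With total counts the share of higher genes among those called moved from 44.3% to 31.9% in NP-IWP2, 49.9% to 21.1% in P-DF and 47.9% to 14.5% in P-IWP2 for the change with day, from 41.9% to 23.2% in P-DF over both days, and from 36.2% to 21.0% and 42.2% to 21.3% for the interactions in P-DF and P-IWP2. Depth limits APOH, MTTP and Day 16 APOB in passaged cells, which rest on 0 to 14 counts a library.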

Other observations

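Receptors that take up lipoproteins were measured in passaged and in static cells. VLDLR was at 6.41 to 10.42 FPKM in all 12 libraries. LRP2, the endocytic receptor megalin, was at 4.56 to 6.76 FPKM in static libraries and 0.51 to 0.91 in passaged libraries of Day 16, and was called lower in both passaged treatments on that day. CD36, a fatty acid transporter, was at 0.82 and 1.0 FPKM in NP-IWP2, 2.62 and 3.05 in P-DF and 0.94 and 1.57 in P-IWP2 on Day 16. It was called higher in neither passaged treatment on that day, but was called higher in P-DF over both days. CD36 rose with day in P-DF (2.70 ± 0.58, adjusted p = 0.0174 by edgeR) and in P-IWP2 (1.91 ± 0.57, 0.0369). In NP-IWP2 it was also lower on Day 12, at 0.28 and 0.34 FPKM, but that change was not called.

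CLU, an apolipoprotein outside the 10 genes and also known as APOJ, went from 0.59 and 0.73 to 5.81 and 5.07 FPKM in P-DF and from 2.54 and 1.06 to 4.98 and 6.38 in P-IWP2 between the days, and stood at 5.54 and 4.97, then 10.52 and 7.53 in NP-IWP2. Its rise with day passed the test in P-DF (3.30 ± 0.36, adjusted p = 0.000995) and in P-IWP2 (2.11 ± 0.33, 0.00349). Of the sterol exporters, ABCA1 was at 4.66 to 21.02 FPKM and ABCG1 at 1.07 to 4.93, and over both days ABCG1 in P-DF exceeded its static level (0.77 ± 0.13, adjusted p = 0.00142). ABCG5 and ABCG8 were at or under 0.15 FPKM.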
